A study of Oncorhynchus mykiss with 24 samples.

Results

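Eggs of O. mykiss (rainbow trout) were crossed with sperm of S. fontinalis (brook trout), so a transcript read from an S. fontinalis gene copy should come from the father's genome. The paternal genes were taken as all genes with an S. fontinalis identifier in the deposited table of raw counts, which gave 9992 of 32765 genes, the other 22773 being O. mykiss genes. They are described in the animal section (section A) of embryos at 3 days post fertilization (dpf), against section A of eggs at 0 hours post fertilization (hpf), whose S. fontinalis counts serve as background. All levels are library-scaled counts (CPM, the count over each 1000000 counts) of the whole library, both species included. CPM is not divided by transcript length, so a high value says that a gene took many counts and gives no order of molecules between genes. The choice of genes used only the identifier and no measured value.

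In a fish egg the first cell divisions run on RNA and protein that the mother stored, and transcription from the embryo's own genome starts in earnest at the mid-blastula transition. Sperm bring chromosomes and almost no cytoplasm, so a paternal transcript in the embryo is read as newly made RNA. In a cross between species the sequence differences between the parents let reads be sorted by parent, as far as the 2 genomes differ over the read.

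Each egg or embryo was frozen and cut once, which gave an animal piece where the cells form (section A) and a vegetal piece that is mostly yolk (section B), and the pieces were sequenced separately, a design called TOMO-seq. The embryos at 3 dpf were mid-blastulae of about 1000 cells, those at 1 dpf had about 32 to 64 cells, and the remaining groups were sampled at 1 hpf and at 0 hpf. All came from the same cross, except that the 0 hpf eggs are labelled as non-fertilized in one field and as freshly fertilized in another, so whether sperm had entered them cannot be told. Of 24 labelled libraries, 20 were in the table and 4 were not analysed here, which left 2 libraries in each of the 4 groups at 3 dpf and 0 hpf and 3 in each group at 1 dpf and 1 hpf. Within a stage, sections A and B carry the same biological replicate numbers, read here as the 2 sections of 1 egg or embryo. Library totals were 5923757 and 5011274 counts in 3 dpf section A, and 9346271 and 9180782 counts in 0 hpf section A. At 3 dpf in section A, marker genes of the blastula of S. fontinalis summed to 1127 and 933 CPM, against 0.321 and 0.218 CPM at 0 hpf. All 18 of 18 passed the test described below, as did 86.1% of all paternal genes tested. Of the paternal genes tested that reached the table's count minimum only in 3 dpf section A, 96.0% passed. The 18 calls are thus given as a description. The O. mykiss copies of the same markers summed to 2726 and 1963 CPM at 3 dpf and 1562 and 1606 CPM at 0 hpf, with 13 of 20 called higher and 2 lower. Egg and oocyte markers of O. mykiss summed to 760 and 1139 CPM at 3 dpf, against 1342 and 1459 CPM at 0 hpf, and no blood marker of the short list (globins, alas2, slc4a1a, gata1) was among the genes of either species.

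Paternal genes took 24.0% and 22.5% of all counts in the 2 libraries of 3 dpf section A, against 1.06% and 1.04% in the 2 libraries of 0 hpf section A. The means were 23.2% ± 1.12 at 3 dpf and 1.05% ± 0.0150 at 0 hpf (SD, n = 2 each), a 22.1-fold difference. The exact binomial 95% intervals, which cover counting error only, ran from 24.0% to 24.1% and from 22.4% to 22.5% at 3 dpf. The 18 libraries other than those of 3 dpf section A lay between 0.927% and 1.08%, with section B of the same 3 dpf embryos at 0.982% and 1.02%. No library of another group thus came near the 2 animal sections at 3 dpf. With 2 libraries against 2, no permutation test can pass a threshold of 0.05, so the share is given as a description. In a bulk section, more cells and more RNA per cell cannot be told apart.

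**Figure D1:**
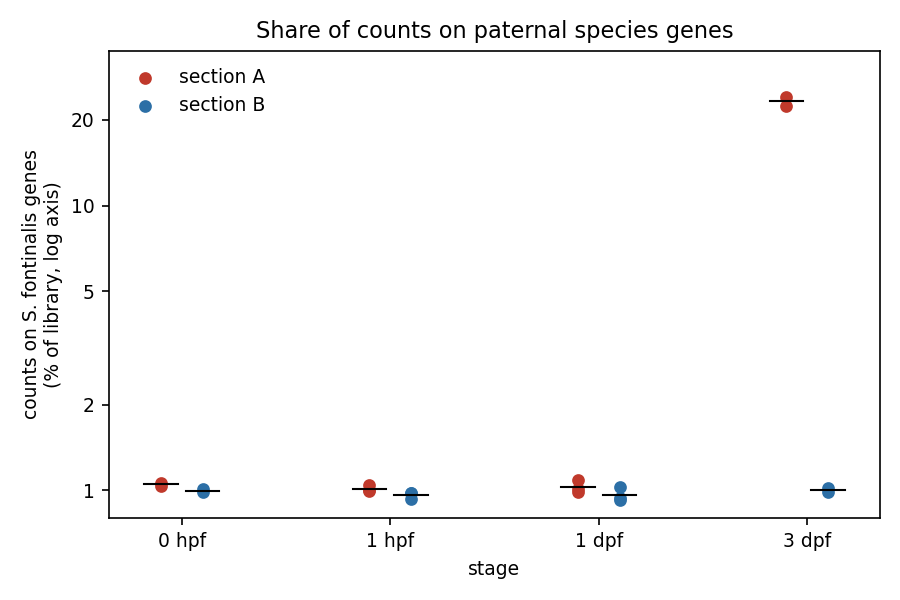
Share of each library's counts on paternal (S. fontinalis) genes, in percent on a log axis, by stage, with 1 point per library, colour for the section and a bar at the group mean. The 2 libraries of 3 dpf section A are at 24.0% and 22.5%, and the other 18 are between 0.927% and 1.08%.

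Which paternal genes stood above the egg counts was tested with edgeR's quasi-likelihood test on the counts of all 20 libraries, scaled by library totals and with Benjamini-Hochberg adjustment over the tested genes of both species. Of 9778 paternal genes tested, 8417 were called higher at 3 dpf than at 0 hpf at an adjusted p under 0.05, which is 86.1% of the paternal genes tested, against 31.6% of all genes tested and 8.14% of the O. mykiss genes. The opposite call was made for 32 paternal genes (0.327%, against 18.8% of all genes tested and 26.8% of the O. mykiss genes). The O. mykiss shares depend on the scaling. Library totals gave 1849 O. mykiss genes higher and 6086 lower, and scaling factors from O. mykiss genes alone gave 3422 higher and 2239 lower. A further 696 paternal genes were not called higher and had a 3 dpf mean of at most 2 times the egg mean; these are called the genes at the egg background here. Another 633 had a 3 dpf mean over 2 times the egg mean without passing the test, and 214 were not tested because the expression filter removed them. The median log2 fold change was 6.46 over the paternal genes tested, or 4.86 with genes of 0 egg counts set at their lower bound, and −0.02 over all genes tested.

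These counts depend on which genes the table lists. A gene is listed where some library has more than 30 counts on it, and 7875 of the 9992 paternal genes reached that only in a library of 3 dpf section A, so they had to differ from the eggs. Of these, 7661 were tested and 7355 were called higher (96.0%). Of the other 2117, which had more than 30 counts in some other library, 1062 were called higher (50.2%), 32 lower, 692 were at the egg background and 331 lay between. The background class is thus made up almost wholly of genes that some egg or other library already counted. In the eggs, 3615 paternal genes had 0 counts in both section A libraries, where a count of 0 allows up to 0.321 and 0.327 CPM. Since a p over 0.05 does not show equality, the interval was counted too, and 18 genes among those called lower or at the egg background had a 95% interval of the log2 fold change within −1 to 1. Of these 18, 2 had 0 counts in every library of section A at 3 dpf and 0 hpf. Their interval has no width and says nothing about equality.

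**Figure D2:**
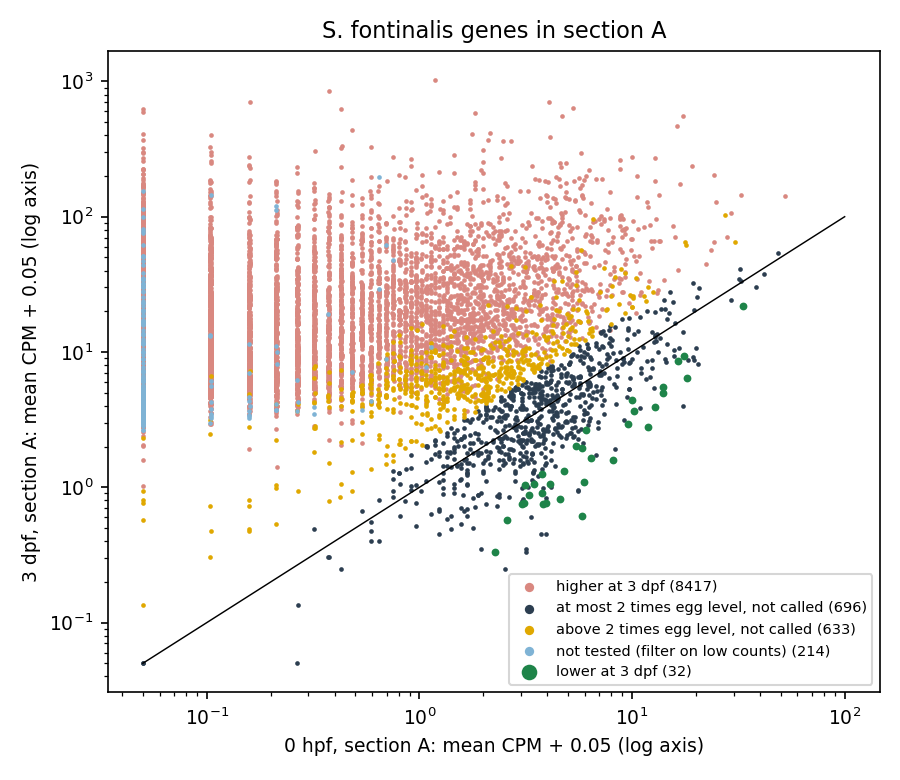
Mean CPM + 0.05 of each paternal gene in section A at 3 dpf (vertical) and at 0 hpf (horizontal), both on log axes, 1 point per gene, coloured by class. The 8417 genes called higher lie above the line of equal values, and the 696 genes at the egg background lie along or under it up to 2 times the egg mean.

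The paternal signal at 3 dpf was spread over many genes. In section A at 3 dpf, 320 genes averaged 100 CPM or more and held 25.3% of the paternal counts, 5356 averaged 10 to 100 CPM and held 63.5%, and 4215 averaged 1 to 10 CPM and held 11.3%. In section A at 0 hpf no paternal gene reached 100 CPM, 121 averaged 10 to 100 CPM with 19.0% of the paternal counts, and 2396 averaged 1 to 10 CPM with 69.2%. The median paternal gene had 11.8 CPM at 3 dpf and 0.160 CPM at 0 hpf. At 3 dpf, 1239 genes were needed to reach 50% of the paternal counts, against 658 genes at 0 hpf, and the 20 genes with the most counts took 4.79% at 3 dpf and 5.97% at 0 hpf. Of the 320 genes at 100 CPM or more, 313 were called higher.

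Among genes with a symbol, the 20 highest averaged 363 to 1026 CPM at 3 dpf and 0 to 17.4 CPM at 0 hpf. None of the 20 exceeded 7.18 CPM in a section B library at 3 dpf or 17.9 CPM in a section A library at 1 dpf. Nucleolin (ncl), an abundant nucleolar protein of ribosomal RNA transcription and processing, stood first with 1369 and 683 CPM at 3 dpf, against 1.60 and 0.654 CPM at 0 hpf. The lower 3 dpf library was far above both eggs, and the log2 fold change was 9.80 ± 1.09 (SE, edgeR adjusted p = 5.14e-06). All 92 paternal genes of the ribosome biogenesis list were tested and called higher, against 86.1% of all paternal genes tested. The median of the list was 41.6 CPM at 3 dpf and 0.0535 CPM at 0 hpf. Of those 92 genes, 9 had more than 30 counts in some other library, and the 9 were also called higher. In utp20, which encodes a component of the machinery that processes the small subunit's RNA, levels were 373 and 368 CPM at 3 dpf and 2.35 and 1.74 CPM at 0 hpf. In nop56 (LOC129841994), a core protein of the box C/D particles that methylate ribosomal RNA, they were 480 and 159 CPM at 3 dpf and 0 in both eggs, at least 987-fold higher against a floor of 3 counts per library. Midasin (mdn1, LOC129824982), the large ATPase of the 60S assembly line, had 415 and 690 CPM at 3 dpf and 4.92 and 4.36 CPM at 0 hpf.

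**Figure D3:**
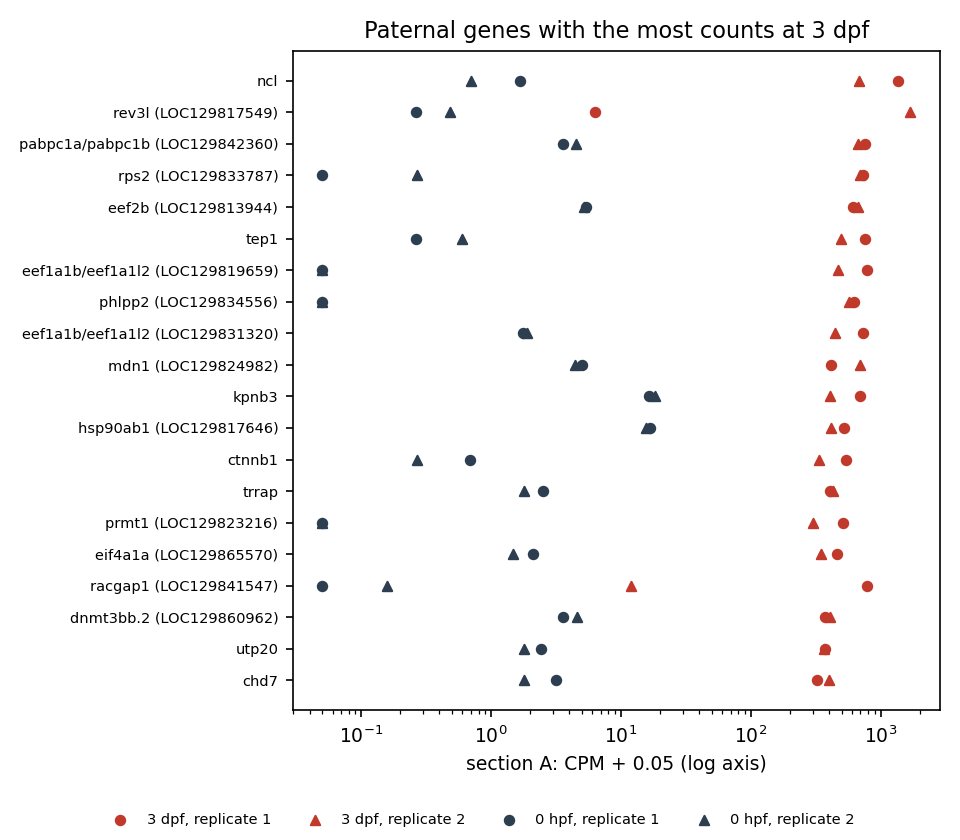
The 20 named paternal genes with the highest mean CPM in section A at 3 dpf, with CPM + 0.05 on a log axis and 1 point per library. All 3 dpf points lie right of the 0 hpf points of the same gene, and in rev3l and racgap1 the 2 libraries of 3 dpf lie far apart.

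Ribosomal protein genes moved with them. Of 154 paternal copies of cytosolic ribosomal protein genes, 151 were called higher, 3 lay between and none was at the egg background. That is 98.1% higher, against 86.1% of all paternal genes tested. The median log2 fold change was 9.80, or 6.21 with genes of 0 egg counts at their bound. Only 5 of the 154 had more than 30 counts outside 3 dpf section A, and 3 of those 5 were called higher. The copy with the most counts was rps2 (LOC129833787), of the small subunit, with 728 and 690 CPM at 3 dpf and 0 and 0.218 CPM at 0 hpf. That egg value is 2 counts in all, and the ratio of 6581 has a counting interval of 1821 to 54348. The stalk protein gene rplp0 (LOC129844883) had 353 and 245 CPM at 3 dpf and 0 and 0.109 CPM at 0 hpf, and rpl4 (LOC129856887) had 254 and 166 CPM at 3 dpf and 0.214 and 0.218 CPM at 0 hpf. Mitochondrial ribosomal protein genes took fewer counts. Of 19 tested, 17 were called higher (89.5%) and 1 was at the egg background. The median of the list was 5.63 CPM at 3 dpf and 0.0272 CPM at 0 hpf. The highest of these, mrpl12 (LOC129832817), had 25.0 and 32.3 CPM at 3 dpf and 2.67 and 2.29 CPM at 0 hpf, a log2 fold change of 3.52 ± 0.50 (SE, edgeR adjusted p = 4.74e-05). Its relative mrps30 was at the background, with 10.6 and 6.98 CPM at 3 dpf and 5.24 and 7.41 CPM at 0 hpf.

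Of 92 paternal genes of translation factors, 88 were called higher, 1 was at the egg background and 3 lay between. That is 95.7% higher, against 86.1% of all paternal genes tested. Of the 17 with more than 30 counts outside 3 dpf section A, 15 were called higher. The median log2 fold change of the list was 7.46, or 5.66 at the bounds. The poly(A)-binding protein gene pabpc1a/pabpc1b (LOC129842360), whose product binds mRNA tails and helps initiation, had 753 and 665 CPM at 3 dpf and 3.53 and 4.47 CPM at 0 hpf. The change was 7.47 ± 0.80 on the log2 scale (SE, edgeR adjusted p = 3.6e-06). Elongation factor 2 (eef2b, LOC129813944), which moves the ribosome along the mRNA, had 608 and 673 CPM at 3 dpf and 5.35 and 5.12 CPM at 0 hpf. Elongation factor 1 alpha, which delivers aminoacyl-tRNA, had 2 copies among the 20 highest. One of them (LOC129819659) had 780 and 470 CPM at 3 dpf and 0 in both eggs, at least 1930-fold higher. That bound holds for the 0 hpf eggs only. In section A the same copy had 2.30, 2.02 and 2.57 CPM at 1 hpf and 1.33, 3.65 and 0 CPM at 1 dpf. The other (LOC129831320) had 735 and 443 CPM at 3 dpf and 1.71 and 1.85 CPM at 0 hpf. The ortholog table gives both copies the symbols eef1a1b and eef1a1l2, and how reads were shared between such close copies is not given in the sources used here. In contrast to these, eif3hb (LOC129849471), of the initiation factor 3 complex, had 11.8 and 15.0 CPM at 3 dpf and 15.3 and 10.2 CPM at 0 hpf, ranges that overlap.

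The transcription factors that open the zygotic genome in zebrafish were read from the paternal copy. All 7 paternal genes of that list were called higher, with a median of 83.9 CPM at 3 dpf and 0 at 0 hpf. All 7 are listed through 3 dpf section A alone. For nanog, levels were 302 and 148 CPM at 3 dpf and 0 in both eggs, at least 695-fold higher. One pou5f3 copy (LOC129863856) had 216 and 145 CPM at 3 dpf and 0 and 0.109 CPM at 0 hpf, 1 count in all, with a ratio of 3406 and a counting interval of 611 to 134577. The SoxB1 gene sox19a (LOC129868710) had 149 and 64.3 CPM at 3 dpf and 0 in both eggs, at least 329-fold higher, a call that was lost in DESeq2. Of 54 early zygotic regulators, genes that patterning factors or the activators switch on early, 53 were called higher and 1 lay between. That is 98.1% higher, against 86.1% of all paternal genes tested. Only 4 of the 54 had more than 30 counts outside 3 dpf section A, and 3 of those 4 were called higher. The median of the list was 16.1 CPM at 3 dpf and 0 at 0 hpf, and 40 of the 54 had 0 counts in both eggs. The neural regulator zic2b (LOC129859993) had 237 and 177 CPM at 3 dpf and 0 in both eggs, at least 640-fold higher. The chromatin protein gene HMGA1 (LOC129829993) had 134 and 121 CPM and the Hairy-related repressor her5 had 89.5 and 139 CPM at 3 dpf, both with 0 in both eggs. In all 6 of these genes the 2 libraries of 3 dpf stood far above every egg library. Both 3 dpf libraries were above both eggs in 9266 of the 9992 paternal genes. Among the 7875 listed through 3 dpf section A alone, as these 6 are, this held in 7767. For her5 the call was lost in DESeq2.

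**Figure D4:**
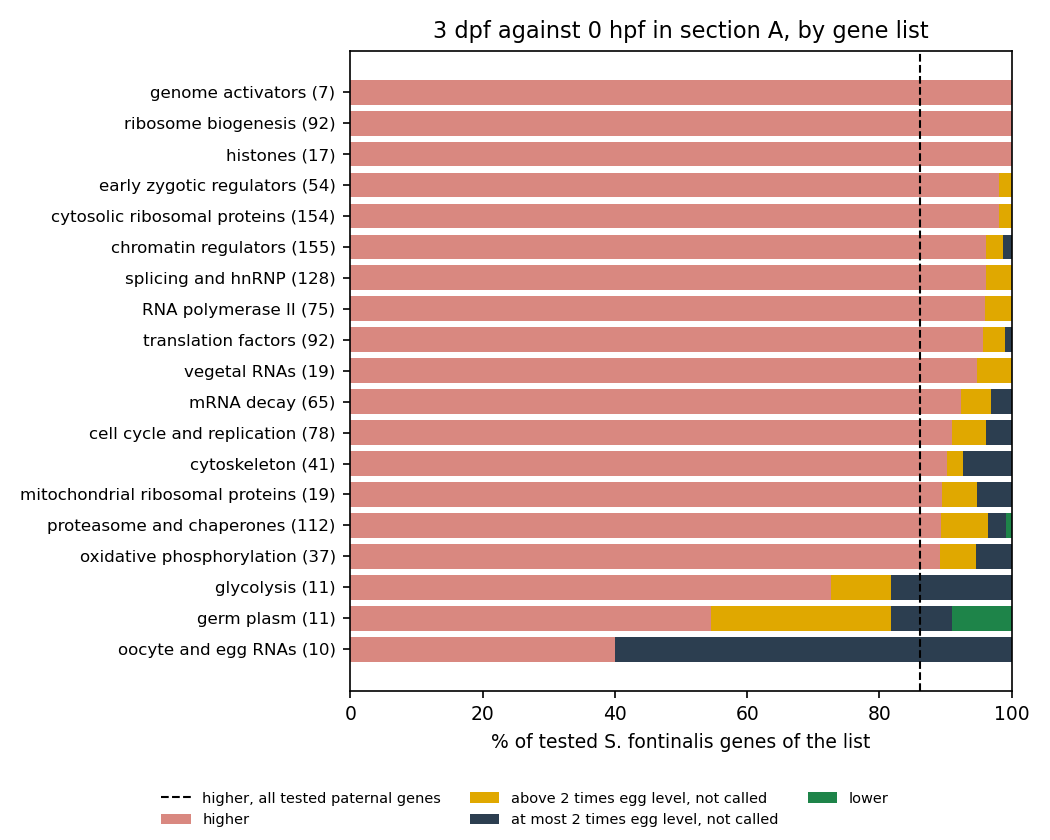
Percent of the tested paternal genes of each list (number tested in brackets) by class in section A, 3 dpf against 0 hpf, with a dashed line at the 86.1% called higher over all paternal genes tested. Ribosome biogenesis (92 of 92) and the genome activators (7 of 7) were all called higher, while 6 of 10 oocyte and egg genes were at the egg background.

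Genes that read, package and process the genome formed the next large block. Of 155 paternal chromatin regulators, 149 were called higher, 2 were at the egg background and 4 lay between. That is 96.1% higher, against 86.1% of all paternal genes tested. Of the 155, 44 had more than 30 counts in another library, and 40 of those 44 were called higher. The arginine methyltransferase gene prmt1 (LOC129823216) had 512 and 300 CPM at 3 dpf and 0 in both eggs, at least 1254-fold higher. The de novo DNA methyltransferase gene dnmt3bb.2 (LOC129860962) had 371 and 404 CPM at 3 dpf and 3.53 and 4.57 CPM at 0 hpf, a log2 fold change of 6.57 ± 1.01 (SE, edgeR adjusted p = 8.72e-05). The chromatin remodeler chd7 had 326 and 401 CPM at 3 dpf and 3.10 and 1.74 CPM at 0 hpf, and trrap, the scaffold of histone acetyltransferase complexes, had 406 and 428 CPM at 3 dpf and 2.46 and 1.74 CPM at 0 hpf. Not all chromatin genes moved. The deacetylase gene hdac1 (LOC129825000) had 13.5 and 19.0 CPM at 3 dpf and 15.6 and 16.1 CPM at 0 hpf, a log2 fold change of 0.03 ± 0.53 (SE, edgeR adjusted p = 0.967), and its O. mykiss partner averaged 321 CPM at 3 dpf and 296 CPM at 0 hpf.

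Of 128 paternal splicing and hnRNP genes, 123 were called higher (96.1%) and 5 lay between, none at the egg background. Both copies of prpf8, the core protein of the spliceosome, were among them, one (LOC129822554) with 212 and 235 CPM at 3 dpf and 11.2 and 6.21 CPM at 0 hpf, the other (LOC129832079) with 177 and 197 CPM at 3 dpf and 6.10 and 5.66 CPM at 0 hpf. Of 75 genes of the RNA polymerase II machinery, 72 were called higher (96.0%) and 3 lay between. Of the 13 with more than 30 counts outside 3 dpf section A, 10 were called higher. All 14 splicing and hnRNP genes over that minimum were called higher too. Over all paternal genes tested, 86.1% were called higher, and 50.2% over those listed outside 3 dpf section A. The large subunit gene polr2a (LOC129835178) had 76.0 and 113 CPM at 3 dpf and 4.71 and 3.59 CPM at 0 hpf. All 17 tested histone genes were called higher, with summed levels of 1116 and 574 CPM at 3 dpf and 33.8 and 55.6 CPM at 0 hpf. Of the histone genes, 5 had more than 30 counts outside 3 dpf section A. A histone H3.3 gene (LOC129829039) was already countable in eggs, with 265 and 134 CPM at 3 dpf and 7.06 and 13.9 CPM at 0 hpf. The DNA damage histone gene h2ax1 (LOC129839562) had 217 and 83.0 CPM at 3 dpf and 0.107 and 0.327 CPM at 0 hpf. In each of these genes, the lower 3 dpf library exceeded the higher egg library by several fold. Over all 9992 paternal genes, both 3 dpf libraries were above both eggs in 9266.

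Of 78 cell cycle and replication genes tested, 71 were called higher (91.0%, against 86.1% of all paternal genes tested), 3 were at the egg background and 4 lay between, with a median log2 fold change of 7.07, or 5.76 at the bounds. The 2 copies of ccng1, a cyclin family gene of the cell cycle list, had 214 and 196 CPM at 3 dpf and 1.07 and 0.436 CPM at 0 hpf (LOC129827418), and 164 and 111 CPM at 3 dpf and 4.81 and 3.59 CPM at 0 hpf (LOC129858462). Topoisomerase II (top2a), which untangles replicated chromosomes, had 184 and 182 CPM at 3 dpf and 6.95 and 3.59 CPM at 0 hpf. Its log2 fold change of 5.11 ± 1.80 (SE, edgeR adjusted p = 0.0249) missed the threshold when any 1 of the 4 libraries was left out, and so did that of the second ccng1 copy with 3 of the 4. At the background, pole, the catalytic subunit of a replicative polymerase, had 5.40 and 17.8 CPM at 3 dpf and 8.99 and 6.43 CPM at 0 hpf. The polymerase delta subunit gene pold3 had 1.86 and 1.60 CPM at 3 dpf and 1.71 and 1.96 CPM at 0 hpf, also overlapping.

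Genes of mRNA decay were mostly called higher too, as were paternal genes in general. Of 65 paternal genes of mRNA decay, 60 were called higher, 2 were at the egg background and 3 lay between. That is 92.3% higher, against 86.1% of all paternal genes tested. Of the 19 with more than 30 counts outside 3 dpf section A, 14 were called higher, against 50.2% of all genes so listed. The deadenylase scaffold gene cnot1 (LOC129866795) had 279 and 270 CPM at 3 dpf and 11.8 and 8.06 CPM at 0 hpf, a log2 fold change of 4.79 ± 0.46 (SE, edgeR adjusted p = 1.44e-06). The microRNA effector genes ago2 and TNRC6A (LOC129845976) had 250 and 137 CPM and 203 and 277 CPM at 3 dpf, against 0 in both eggs for ago2 and 0.107 and 0.109 CPM for TNRC6A. For ago2 that is at least 596-fold higher. The other side of the list was cnot4a (LOC129866668), with 11.0 and 10.6 CPM at 3 dpf and 13.7 and 8.71 CPM at 0 hpf, and the poly(A)-specific ribonuclease gene parn (LOC129846953), with 2.87 and 10.6 CPM at 3 dpf and 6.63 and 7.30 CPM at 0 hpf. In both genes the groups overlapped.

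Of 112 tested proteasome and chaperone genes, 100 were called higher, 1 lower, 3 were at the egg background and 8 lay between. The chaperone gene hsp90ab1 (LOC129817646) had 523 and 417 CPM at 3 dpf and 16.7 and 15.6 CPM at 0 hpf, one of the higher egg levels among the top genes. The proteasome subunit gene psma8 (LOC129855466) had 4.39 and 5.19 CPM at 3 dpf and 4.71 and 7.73 CPM at 0 hpf. Of 37 nuclear genes of oxidative phosphorylation, 33 were called higher and 2 were at the background. These shares, 89.3% and 89.2%, stand beside 86.1% over all paternal genes tested. Of the 5 oxidative phosphorylation genes over the table's count minimum outside 3 dpf section A, 2 were called higher and 2 at background. Of the 25 such genes of the proteasome and chaperone list, 17 were called higher, 1 lower and 3 were at the background. Over all paternal genes so listed, 50.2% were called higher. The ATP synthase gene atp5fa1 (LOC129853817) had 103 and 95.8 CPM at 3 dpf and 0 in both eggs, whereas another subunit's gene, atp5f1c (LOC129838308), had 6.58 and 5.19 CPM at 3 dpf and 6.21 and 6.21 CPM at 0 hpf. Of the 4 genes of glycolysis over that minimum outside 3 dpf section A, 1 was called higher and 2 were at the background. Glycolysis had the lowest share of higher calls among these lists, 8 of 11, with 2 at the background. Its highest called gene, the hexokinase gene hk2 (LOC129853478), had 18.2 and 20.6 CPM at 3 dpf and 1.28 and 0.109 CPM at 0 hpf, and lost the call without 0 hpf replicate 2. Pyruvate kinase (pkma, LOC129834435) had 7.77 and 10.2 CPM at 3 dpf and 10.1 and 8.06 CPM at 0 hpf. Of 41 tested cytoskeleton genes, 37 were called higher (90.2%), as were 8 of the 12 over that minimum outside 3 dpf section A. An actin gene (actb1/actc1a, LOC129833733) led the list with 380 and 273 CPM at 3 dpf and 0.321 and 0.762 CPM at 0 hpf.

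The genes at the egg background are those whose 3 dpf mean was at most 2 times the egg mean without a higher call. The class has no lower limit, so it also holds genes with a fall that was not called. Together the 696 genes summed to 2975 and 3730 CPM at 3 dpf and 3335 and 3309 CPM at 0 hpf, and between 2509 and 3407 CPM in the section A libraries of 1 hpf and 1 dpf. The 8417 genes called higher summed to 228152 and 212104 CPM at 3 dpf and 5587 and 5424 CPM at 0 hpf, a contrast that their selection fixes. In the eggs the genes called higher took 52.7% and 52.2% of the paternal counts, and the genes at the background took 31.5% and 31.9%. The methionine aminopeptidase gene metap1, which trims the first residue of new proteins, had the highest egg mean among background genes with a symbol. It had 39.0 and 35.7 CPM at 3 dpf and 41.9 and 41.2 CPM at 0 hpf, and its log2 fold change was −0.15 ± 0.21 (SE, edgeR adjusted p = 0.572). The growth factor precursor gene grnb (LOC129839748) had 41.5 and 40.3 CPM at 3 dpf and 33.4 and 31.0 CPM at 0 hpf. Both 3 dpf libraries were above both eggs by a small margin, and the change of 0.35 ± 0.26 did not pass (SE, edgeR adjusted p = 0.283), though it did in DESeq2, whose size factors differ. The nucleotide kinase gene nme2b.1 (LOC129832935) had 27.7 and 39.3 CPM at 3 dpf and 34.2 and 30.9 CPM at 0 hpf, and the acetyl-CoA synthetase gene acss2 (LOC129860965) had 22.6 and 18.2 CPM at 3 dpf and 21.4 and 17.6 CPM at 0 hpf. The remaining genes of the 10 with the highest egg means among those with a symbol were si:ch1073-440b2.1, dab2, tbc1d17, emc7b, calm2a and a copy of actb1. That actb1 copy (LOC129833778) had 6.25 and 9.98 CPM at 3 dpf and 18.8 and 21.9 CPM at 0 hpf, so the groups did not overlap, but the change of −1.33 ± 0.98 was not called (SE, edgeR adjusted p = 0.274). The other actin copy, above, was called higher, and the sources used here do not say how reads were split between the copies.

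The oocyte and egg list was mixed. Of its 10 paternal genes, 4 were called higher and 6 were at the egg background, which is 40.0% higher against 86.1% of all paternal genes tested, and the median log2 fold change was −0.47. The list summed to 355 and 148 CPM at 3 dpf and 31.2 and 35.3 CPM at 0 hpf, most of the 3 dpf sum being 2 ccnb1 copies. Of the 10, 7 had more than 30 counts in a library outside 3 dpf section A, and 1 of those 7 was called higher, against 50.2% of all genes so listed. The kinase gene wee2, which holds the oocyte cell cycle, had 4.05 and 6.59 CPM at 3 dpf and 10.3 and 8.93 CPM at 0 hpf, lower in both libraries but not called (adjusted p = 0.0941, edgeR). The oocyte growth factor gene gdf9 (LOC129858458) had 4.56 and 8.78 CPM at 3 dpf and 7.17 and 6.97 CPM at 0 hpf. The oogenesis-related gene org had 1.18 and 2.59 CPM at 3 dpf and 4.28 and 7.41 CPM at 0 hpf. The 4 called higher were mitotic cyclin genes and the RNA-binding gene cpeb4b. Cyclin B2 (ccnb2) had 50.1 and 28.9 CPM at 3 dpf and 0 in both eggs, at least 122-fold higher, a call lost in DESeq2, and a ccnb1 copy (LOC129818423) had 165 and 50.7 CPM at 3 dpf and 0.428 and 0.218 CPM at 0 hpf. At 1 hpf this ccnb1 copy had 4.84, 20.8 and 14.3 CPM in section A. Its distance from the background is thus much smaller against those eggs than against the 0 hpf eggs. A further ccnb1 copy (LOC129834417) was in the background class, with 2.03 and 0.599 CPM at 3 dpf and 3.64 and 3.81 CPM at 0 hpf. It was lower in both 3 dpf libraries, but the log2 fold change of −1.48 ± 0.79 was not called (SE, edgeR adjusted p = 0.130). Germ plasm genes were mixed, with 6 of 11 called higher, 1 lower, 1 at the background and 3 between. That is 54.5% higher, against 86.1% of all paternal genes tested. Of the 6 with more than 30 counts outside 3 dpf section A, 2 were called higher. The piRNA pathway gene piwil1 had 13.8 and 12.0 CPM at 3 dpf and 0 in both eggs, at least 39.9-fold higher, while dazl, a germ cell translation regulator, had 0.169 and 0.998 CPM at 3 dpf and 0.428 and 1.74 CPM at 0 hpf. Of 19 genes whose relatives are stored in the vegetal part of fish or frog eggs, 18 were called higher. That is 94.7%, against 86.1% of all paternal genes tested. Of the 8 with more than 30 counts outside 3 dpf section A, 7 were called higher. The list was led by a tankyrase gene (tnksa, LOC129853450) with 74.6 and 83.8 CPM at 3 dpf and 3.64 and 1.42 CPM at 0 hpf.

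The 32 paternal genes called lower held 85.6 and 108 CPM in sum at 3 dpf and 256 and 263 CPM at 0 hpf. The number moved with the libraries used. There were 10 without 3 dpf replicate 1, 12 without 0 hpf replicate 1 and 13 without 0 hpf replicate 2, and 7 with scaling factors from O. mykiss genes alone. The ubiquitin ligase gene marchf6 (LOC129822962), which acts in the endoplasmic reticulum, had 6.75 and 5.99 CPM at 3 dpf and 20.2 and 16.0 CPM at 0 hpf, a log2 fold change of −1.50 ± 0.40 (SE, edgeR adjusted p = 0.00479). The ketone-using synthetase gene aacs had 3.71 and 6.19 CPM at 3 dpf and 12.7 and 15.0 CPM at 0 hpf, a call that was lost when 1 hpf libraries joined the background. The sphingomyelinase gene smpd5 had 16.9 and 26.7 CPM at 3 dpf and 32.6 and 34.0 CPM at 0 hpf, which passed narrowly at −0.61 ± 0.24 (SE, edgeR adjusted p = 0.0413) and was lost under most alternatives. The DNA damage adaptor gene paxip1 had 3.55 and 7.38 CPM at 3 dpf and 14.4 and 13.4 CPM at 0 hpf, a call lost without 3 dpf replicate 1, and svilb and gys1 stood at 12.6 and 13.0 CPM and at 12.2 and 11.5 CPM in the eggs. For svilb and gys1 the call was lost when any 1 of the 4 libraries was left out. In the gene lists, the germ granule gene tdrd7a (LOC129841400) and the co-chaperone gene dnajc5aa (LOC129829882) were also called lower, both under 5 CPM in every library compared, and both calls were lost in DESeq2.

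Some genes with a high egg background were called higher. Of 121 paternal genes at 10 CPM or more in the eggs, 45 were called higher (37.2%, against 86.1% of all paternal genes tested), 9 lower, 56 were at the background and 11 lay between. The highest of all in eggs, pbrm1l (LOC129843751), a gene of a chromatin remodeling complex, had 135 and 148 CPM at 3 dpf and 52.9 and 51.6 CPM at 0 hpf, a log2 fold change of 1.44 ± 0.23 (SE, edgeR adjusted p = 0.000118). The splicing factor gene sf3b1 (LOC129821129) had 191 and 216 CPM at 3 dpf and 22.3 and 26.1 CPM at 0 hpf, and the nuclear pore gene pom121 (LOC129818812) had 138 and 120 CPM at 3 dpf and 24.5 and 25.2 CPM at 0 hpf. The histone methyltransferase gene kmt2a had 89.5 and 200 CPM at 3 dpf and 36.1 and 29.2 CPM at 0 hpf. In each of these the lower 3 dpf library was above both eggs, as it was in 67 of the 121.

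The O. mykiss partners of the background genes were mostly called lower at 3 dpf when scaled by library totals. Partners were taken where the ortholog table pairs exactly 1 gene of each species. Of 294 background genes with a tested partner, the partner was called lower at 3 dpf in 215 and higher in 1, with a median log2 fold change of −1.02. Of 3291 genes called higher, the partner was lower in 783 and higher in 623, with a median of −0.08, and over all 3820 tested pairs it was lower in 1113 and higher in 626. Calls of O. mykiss genes depend on the scaling. Over all O. mykiss genes, library totals gave 6086 lower and 1849 higher, with a median log2 fold change of −0.47. Scaling factors from O. mykiss genes alone gave 2239 lower and 3422 higher, with a median of 0.02. The partner counts are given under library totals only. In the eggs, the S. fontinalis counts of a background gene were 3.29% of its partner's counts (median, with quartiles 2.06% and 6.39%), against 0.389% for the genes called higher. These medians cover only partners at 10 CPM or more in the eggs, 294 for background genes and 2787 for genes called higher. Since the class itself asks for egg counts, the difference between these medians is a description. Whether the egg counts on S. fontinalis genes are O. mykiss reads placed on the wrong species was not tested.

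For part of the class, the background differed from egg to egg. Of 227 background genes that averaged 5 CPM or more at 0 hpf in section A, 28 were under 1 CPM in both sections of at least 1 of the 8 eggs and embryos sampled before 3 dpf. None of the 28 was so low in either 0 hpf egg, which the choice of genes fixes, while 16, 14 and 13 were in the 3 eggs of 1 hpf and 13, 14 and 0 in the 3 embryos of 1 dpf. In 3 of the 28, spdl1, wrap73 and katnbl1, this was so in 5 eggs and embryos. The spindle gene spdl1 had 0 CPM in both sections of all 3 eggs of 1 hpf and of 2 embryos of 1 dpf, and in section A it had 33.6 and 21.4 CPM at 3 dpf and 15.0 and 14.9 CPM at 0 hpf. The calmodulin gene calm2a had 35.3 and 41.0 CPM at 0 hpf, 0.691, 0.532 and 0.117 CPM at 1 hpf, 0.296, 1.70 and 21.0 CPM at 1 dpf, and 10.6 and 49.9 CPM at 3 dpf in section A. Section B of the same eggs gave 57.2 and 44.0 CPM at 0 hpf and 0.161 and 40.7 CPM at 3 dpf. The 2 sections of an egg were both high or both low in most cases, and replicate 1 of 3 dpf was an exception. The gene emc7b (LOC129817769), of a membrane protein insertion complex, had 13.7, 0 and 0.117 CPM at 1 hpf in section A and 17.1, 0 and 0 CPM in section B, against 17.5 and 21.1 CPM at 0 hpf in section A. These genes were chosen after their values were seen, from the 28.

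**Figure D5:**
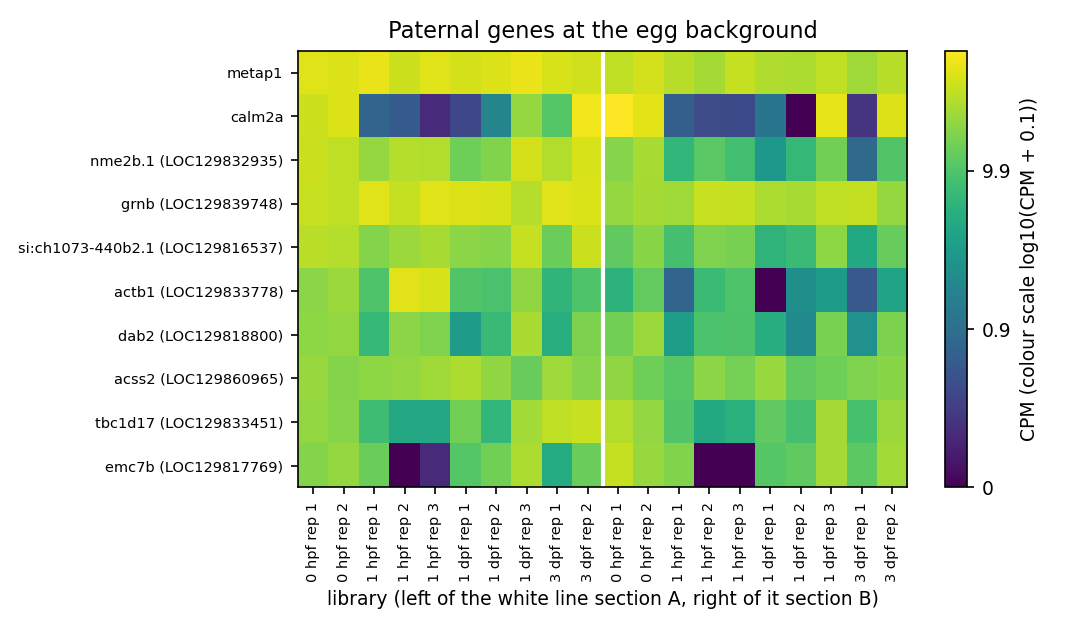
CPM of the 10 paternal genes with a symbol at the egg background that had the highest egg means (rows) in each of the 20 libraries (columns, by stage and replicate, section A left of the white line and section B right of it), as colour on a log scale of CPM + 0.1. The row of metap1 is nearly even over all libraries, while calm2a and emc7b drop to near 0 in some eggs, in both sections of the egg.

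Some of the 633 genes between the classes were high in both 3 dpf libraries without passing the test. The genes named here were chosen after their values were seen, from those with the highest 3 dpf means. The chromatin remodeler gene chd1 had 87.1 and 118 CPM at 3 dpf and 31.2 and 23.6 CPM at 0 hpf, a log2 fold change of 1.90 ± 0.81 (SE, edgeR adjusted p = 0.0591). Against section B of the same 3 dpf embryos, with 3.22 and 18.0 CPM, it was 3.27 ± 0.87 (SE, edgeR adjusted p = 0.00421). The mitotic spindle gene dlgap5 had 98.1 and 95.2 CPM at 3 dpf and 8.24 and 4.79 CPM at 0 hpf, with 0 and 2.08 CPM in 3 dpf section B. With 3 dpf means of 64.8 and 64.6 CPM, mtrex (LOC129811279) and rpl11 (LOC129831316) were not called against the eggs (edgeR adjusted p = 0.0560 and 0.0544). Both passed against section B of the same 3 dpf embryos (edgeR adjusted p = 0.00938 and 0.000721). The nuclear import gene kpna2 (LOC129825928) had 61.6 and 61.3 CPM at 3 dpf and 20.2 and 15.6 CPM at 0 hpf, and did not pass against the eggs. Against section B, with 0 and 10.4 CPM, the change was 3.56 ± 2.18 (SE, edgeR adjusted p = 0.179) and passed with a term for each egg (edgeR adjusted p = 1.05e-05, with an SE of 0.60). At 1 dpf in section A it had 0, 0.130 and 24.1 CPM, so its background too differed between embryos.

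With section B of the same embryos as background, a choice made after seeing the data, 8447 paternal genes were called higher in section A (86.4% of those tested, against 36.5% of all genes tested) and 73 lower (0.747%, against 18.9%). Of these 8447, 8061 were also called higher against the eggs, which is 95.8% of the genes called against eggs and 95.4% of those called against section B. Both comparisons share the 3 dpf section A libraries. Of the 9992 paternal genes, 7875 are listed through those libraries alone, so they had to differ from section B as well as from the eggs. Of the 2117 listed otherwise, 1078 were called higher than section B. Of the 696 genes at the egg background, 83 were called higher and 51 lower than section B, and of the 633 between, 303 were called higher. That fit treats the 2 sections as separate samples. With a term for each egg, also chosen after seeing the data, 8639 paternal genes were called higher, 8331 of them also without the term, and 96 lower. Of the genes at the egg background 127 were then called higher, and of those between 417. The vegetal section is another region of the embryo, so this is a background of the same eggs and not of the same cells.

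Paternal genes were not called higher before 3 dpf by this test. Of the 9778 tested, 7661 had at most 30 counts in every library outside 3 dpf section A. The listing thus limited how far those could rise at 1 dpf or in section B. The other 2117 were free of that limit. In section A at 1 dpf against 0 hpf, 0 of 9778 paternal genes were called higher (0% of all genes tested as well) and 0 lower in edgeR, with 295 higher and 184 lower at an unadjusted p under 0.05 and 5 called higher in DESeq2. In section B at 3 dpf against 0 hpf, 0 paternal genes were called in either direction, against 0.0646% of all genes tested called higher and 0.185% lower. At an unadjusted p under 0.05, 219 were higher and 298 lower, and DESeq2 called 39 higher. Without replicate 2 of 3 dpf section B, 13 were called higher. The difference itself was tested as an interaction, and the change from the eggs was larger in section A than in section B for 2761 paternal genes (28.2%, against 11.6% of all genes tested) and smaller for 6 (0.0614%, against 5.64%). With a term for each egg the counts were 2762 and 8. The 7661 tested genes listed through 3 dpf section A alone were bound towards a larger change there. The share of 28.2% is thus given as a description.

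The 2 animal sections at 3 dpf differed in which paternal genes they held. Over the 5676 paternal genes averaging 10 CPM or more there, the log2 ratio of the 2 libraries had an SD of 1.00, against 0.63 over 13184 O. mykiss genes at the same limit. A gap of over 8-fold was found in 93 paternal genes (1.64%) and in 50 O. mykiss genes (0.379%). A gap of over 2-fold was found in 704 paternal genes (12.4%) and in 999 O. mykiss genes (7.58%). Of the 9992 paternal genes, 7875 are listed through 3 dpf section A alone. For those, 1 high library was enough, so the listing lets in genes that were high in 1 library only. In 45 of the 93 the level was higher in replicate 1 and in 48 in replicate 2. The translesion polymerase gene rev3l (LOC129817549), second in mean CPM, had 6.25 and 1695 CPM at 3 dpf and 0.214 and 0.436 CPM at 0 hpf, so its mean rests on replicate 2 alone. The cytokinesis gene racgap1 (LOC129841547) had 785 and 12.0 CPM at 3 dpf and 0 and 0.109 CPM at 0 hpf, the reverse order, and its call was lost in DESeq2. Their O. mykiss partners averaged 94.0 CPM (rev3l) and 254 CPM (racgap1) at 3 dpf, against 105 and 281 CPM at 0 hpf. Among genes picked after their values were seen, wdr81 had 337 and 37.1 CPM at 3 dpf. The cause of these gaps was not tested.

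The expression filter removed 214 paternal genes, and 66 of the 93 with a gap of over 8-fold were among them, while 26 of the 93 were tested and called higher. In 85 of the 214 a 3 dpf library of section A had 0 counts, and 102 reached 10 CPM in only 1 of the 2. The polo-like kinase gene plk2b had 389 and 1.20 CPM at 3 dpf, the hexokinase gene hk1 291 and 0 CPM, and arhgap36 0 and 102 CPM, all with under 1 CPM in both eggs. Without the filter, 170 of the 214 were called higher. The 2 libraries of 3 dpf thus stood on opposite sides in these genes, with replicate 1 high in plk2b and hk1 and replicate 2 high in arhgap36.

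Markers of other cell types were few among the paternal genes. Those of the sperm, ovarian follicle and blood lists are all listed through 3 dpf section A alone. Of the tested paternal genes so listed 96.0% were called higher, against 86.1% of all paternal genes tested. The calls of these markers are thus given as a description. All 3 genes of the sperm list were called higher, with rsph10b (LOC129863587), of the ciliary radial spoke, at 16.0 and 23.7 CPM at 3 dpf and 0.107 and 0.327 CPM at 0 hpf, dnah12 at 16.2 and 22.7 CPM at 3 dpf and 0 in both eggs, and odf2b (LOC129853406) at 6.41 and 5.59 CPM at 3 dpf and 0 and 0.109 CPM at 0 hpf. The call of dnah12 was lost in DESeq2 and that of odf2b without 0 hpf replicate 1. No gene with a protamine or transition protein symbol was among the genes of either species. The hormone receptor gene fshr (LOC129862859), listed as an ovarian follicle marker, had 323 and 268 CPM at 3 dpf and 0 in both eggs, at least 912-fold higher. Its O. mykiss partner averaged 3.80 CPM at 3 dpf and 0.162 CPM at 0 hpf, and no other symbol of the short follicle marker list was present in either species. The phosphatase gene phlpp2 (LOC129834556) was another with high paternal counts and none in eggs, with 620 and 566 CPM at 3 dpf, at least 1832-fold higher. Both genes of the blood list, epb41b (LOC129856918) of the membrane skeleton and the transferrin receptor gene tfr1a/tfr1b (LOC129823174), were called higher, with 51.0 and 66.3 CPM and 19.2 and 21.0 CPM at 3 dpf, against 0.107 and 0 CPM and 0.428 and 0 CPM at 0 hpf. The 1 gene of the differentiated tissue list, neurod2 (LOC129860399), was at the background. No gene of the liver and yolk list had an S. fontinalis identifier in the table.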

How the data were processed

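RNA of 20 libraries was analysed. Per the labels' protocols, ribosomal RNA was removed and stranded libraries were built. The tools named in the submitters' processing notes are HTSeq 2.0.4, STAR 2.7.11, DESeq2 and fastp 0.23.4, with no roles given. Genome builds, the strand setting and the assignment of reads that match both species or several gene copies are not given in the sources used here. The deposited values are raw counts per gene, and the authors' normalized tables were not used. Symbols came from the identifiers (2415 paternal genes) and the deposited ortholog table (5137 with 1 symbol, 221 with several), and 2219 had none.

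CPM was computed from library totals over both species. edgeR 4.0.16 under R 4.3.3 fitted all 20 libraries with a mean per stage and section, filterByExpr, library totals without TMM, and adjustment over 32502 genes. The test was also run on simulated data with a common spread for all genes and few changed genes. That setting is simpler than these data, so no conclusion is drawn from it. DESeq2 1.42.0, other scalings, filters, backgrounds and left-out libraries were tried. The replicate numbers did not pair the 3 dpf with the 0 hpf libraries of section A (correlation of deviations −0.055). Depth was 5011274 to 9986001 counts per library, and intervals and floors cover counting error only. The main fit took all 20 libraries as separate samples, although sections A and B of a number were read as 1 egg or embryo. Its p-values thus do not measure the spread between eggs alone.

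The genes and the 24 gene lists were chosen with earlier results of these data known. Named genes were, among those with a symbol, the 20 called higher with the highest 3 dpf mean, the 10 at the egg background, the 6 called lower and the 6 called higher with the highest egg mean, and up to 3 per class in each list, with every list member called lower. The text leaves out some of the lists' lesser genes, and some items are not reported here.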

Additional observations from a re-analysis of the deposited data

Results flagged for a closer look

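The difference of 3 dpf against 0 hpf was not the same in the 2 sections for 2761 paternal genes, in which it was larger in section A than in section B by edgeR's interaction test at an adjusted p under 0.05. That is 28.2% of the 9778 paternal genes tested, against 11.6% of all genes tested, and the opposite held for 6 paternal genes. Of the 9778, 7661 reached the table's count minimum only in 3 dpf section A. The direction was thus largely set by the listing, and the share is a description.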

How the results depend on the processing

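The 8417 higher calls and the 728 genes not called higher within 2 times the egg mean (696 at the background and 32 lower) stayed within 1.5 times under every alternative run, and so did the shares. Without 1 library at a time the higher calls ran from 6660 to 7217, and DESeq2 gave 5805. The 32 lower calls became 19 with TMM factors, 7 with TMM factors from O. mykiss genes, 9 in DESeq2, 6 at an adjusted p under 0.01 with an absolute log2 fold change above 1, 10 to 26 without 1 library, and 73 against 3 dpf section B (96 with a term for each egg, added after seeing the data). Those scalings moved the median log2 fold change of all genes from −0.02 to 0.16 (TMM), 0.48 (O. mykiss factors) and 0.47 (DESeq2). Calls of O. mykiss genes moved from 1849 higher and 6086 lower to 2279 and 4478 (TMM), 3422 and 2239 (O. mykiss factors) and 3557 and 2703 (DESeq2). The 313 higher genes at 100 CPM became 499 with O. mykiss factors, 992 at 50 CPM and 73 at 200 CPM. Of the genes with over 100 counts in another library, 145 were called higher, in place of 1062 at over 30. At 1 dpf, DESeq2 called 5 genes higher, and in section B at 3 dpf DESeq2 called 39 and leaving out 1 library gave 0 to 13. A replicate block gave 8388 higher and 33 lower calls, 5 genes at 1 dpf and 1 in section B at 3 dpf, and changed no call of the 119 named genes. Over those genes and all alternatives, 66 values lost and 9 gained a call, and none reversed. The cause was not tested where a count moved. With 2 libraries a group, and 3615 of 9992 paternal genes at 0 counts in both eggs, the depth limits what can be said of low genes.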
